A study of Homo sapiens with 4 samples.

Results

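The genes described here are the cyclins, cyclin-dependent kinases (CDKs) and CDK inhibitors that act in the G1 phase of the cell cycle. They number 10 of the 58735 gene identifiers in the files. They were chosen by name as CCND1, CCND2, CCND3, CCNE1, CCNE2, CDK2, CDK4, CDK6, CDKN1B and CDKN2B. CCND1 was already known to be lower in the comparison below when the list was made. The difference between the groups is therefore given as a description, with no p-value for any of the 10 genes. Their counts past thresholds are likewise descriptions. HCT116, a human colorectal carcinoma cell line, was transfected with control siRNA (NC) or with siRNA targeting KIF26B, a kinesin (KIF-si), and RNA was collected after 48 h. Each group held 2 libraries, numbered as replicates 1 and 2, and the sources do not say whether the libraries came from separate cultures. The paper's Results name more than 1 siRNA against KIF26B, for other cell assays, without saying which was used for these libraries. The deposited columns of KIF-si replicates 1 and 2 are headed K_KD1_2 and K_KD2, which may mark different siRNAs. Spread between the KIF-si libraries may therefore be technical or lie between siRNAs, and these cannot be told apart.

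D-type cyclins are the regulatory subunits of CDK4 and CDK6. They accumulate when cells receive growth signals, and the active kinases phosphorylate the retinoblastoma protein RB1. Phosphorylated RB1 releases E2F transcription factors, which switch on the E-type cyclins and the genes of DNA replication. Cyclin E then activates CDK2 and drives the cell into S phase. Inhibitors of the INK4 family, such as the product of CDKN2B, bind CDK4 and CDK6, whereas the product of CDKN1B, p27, inhibits CDK2 complexes and also binds those of cyclin D. In colorectal cancer CCND1 is well known as a growth-controlled oncogene.

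Reads on genes were recovered from the deposited FPKM (fragments per kilobase of exon, scaled to sequencing depth), and came to 19611211 to 25388454 per library. They exceeded the depth that the FPKM were divided by, 1.02-fold and 1.03-fold in NC and 1.03-fold and 1.09-fold in KIF-si. The cause of this excess was not tested. Mitochondrial genes took 6.68% and 6.69% of the reads in the NC libraries and 9.38% and 7.53% in the KIF-si libraries. KIF26B itself had 31 and 73 reads in NC and 43 and 8 reads in KIF-si. The library labelled KIF-si replicate 1 thus lay between both controls at 0.140 FPKM, and only the library labelled KIF-si replicate 2 lay below them, at 0.0307 FPKM. Every direction below compares libraries by their labels. Of 9 epithelial marker genes, 8 averaged at least 1 FPKM, and VIL1 did not. The summed level of the 9 genes was 1814 and 1827 FPKM in NC and 1685 and 1836 FPKM in KIF-si, but its members differed in both directions. KRT8 was at 485 and 482 FPKM in NC and 369 and 350 FPKM in KIF-si, KRT18 and CDH1 were likewise below both controls in both KIF-si libraries, and CLDN7 was at 55.0 and 52.3 FPKM in NC and 63.1 and 134 FPKM in KIF-si. Their part in the results below was not tested. Of 9 markers of fibroblasts, leukocytes and endothelium found in the files, 7 were below 1 FPKM, CD3E was at 0 in every library, and their sum ranged from 7.32 to 10.2 FPKM. The exceptions were COL1A1, at 4.74 to 8.69 FPKM, and ACTA2, at 0.633 and 0.599 FPKM in NC and at 2.25 and 1.34 FPKM in KIF-si.

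CCND1 (ENSG00000110092) encodes cyclin D1. It lies on the plus strand of chromosome 11 from 69455924 to 69469242, in GENCODE annotation of GRCh37. Its level was 358 and 361 FPKM in the NC libraries and 107 and 187 FPKM in the KIF-si libraries, from 33940, 43030, 11025 and 16324 reads. Both KIF-si libraries lay below both controls, and the controls almost coincided. KIF-si replicate 1 held 29.7% of the NC mean and KIF-si replicate 2 held 52.0%. The group means were 359.5 ± 2.19 and 146.9 ± 56.7 FPKM (SD, n = 2 each), a difference of −1.34 on the log2(FPKM + 1) scale (standard error 0.30). Fewer cells with CCND1 RNA and less CCND1 RNA per cell cannot be told apart in these bulk libraries. Without KIF-si replicate 1 the difference was −0.94, which no longer exceeds a 2-fold change, and without KIF-si replicate 2 it was −1.74. By FPKM, CCND1 ranked 74th of all genes in both NC libraries, and 272nd and 168th in KIF-si replicates 1 and 2.

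CCND3, which encodes cyclin D3 (ENSG00000112576, chromosome 6, 41902672 to 42018095, minus strand), was the only other D-type cyclin with a measurable level. It stood at 11.6 and 11.8 FPKM in NC and at 6.26 and 5.34 FPKM in KIF-si. The KIF-si libraries were again both below both controls, at 53.5% and 45.7% of the NC mean, and here replicate 2 was the lower of the pair. The difference was −0.90 on the log2(FPKM + 1) scale (standard error 0.13). Its share of the NC level was thus above that of CCND1 in KIF-si replicate 1 and below it in KIF-si replicate 2.

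CCND2, the gene of cyclin D2 (ENSG00000118971, chromosome 12, 4378937 to 4414519, plus strand), had 1 read in NC replicate 2 and 0 reads in the other libraries. At the length that makes its value in NC replicate 2 (0.0057 FPKM) a single read, and with 3 reads taken as the limit that a count of 0 allows, the level could have reached 0.0214 FPKM in NC replicate 1, and 0.0196 and 0.0232 FPKM in KIF-si replicates 1 and 2. These limits cover counting error only. No gain of CCND2 beside the lower CCND1 was detectable at this depth.

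Since FPKM is per exon length, the levels of the D-type cyclins can be summed. The length divided by was 4830 bases for CCND1 and 5802 bases for CCND3, near that of all annotated exons. Where the transcripts present are shorter, FPKM understates the level. Shares and ratios between genes, here and below, are therefore approximate, and the transcripts present were not tested. CCND1 made up 96.9% and 96.8% of their summed FPKM in the NC libraries, and 94.5% and 97.2% in KIF-si replicates 1 and 2. The sum itself was 370 and 373 FPKM in NC and 113 and 192 FPKM in KIF-si. CCND1 exceeded CCND3 30.9-fold and 30.6-fold in NC, 17.1-fold in KIF-si replicate 1 and 35.0-fold in KIF-si replicate 2. CCND1 remained the highest of the 10 genes by FPKM in every library.

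**Figure D1:**
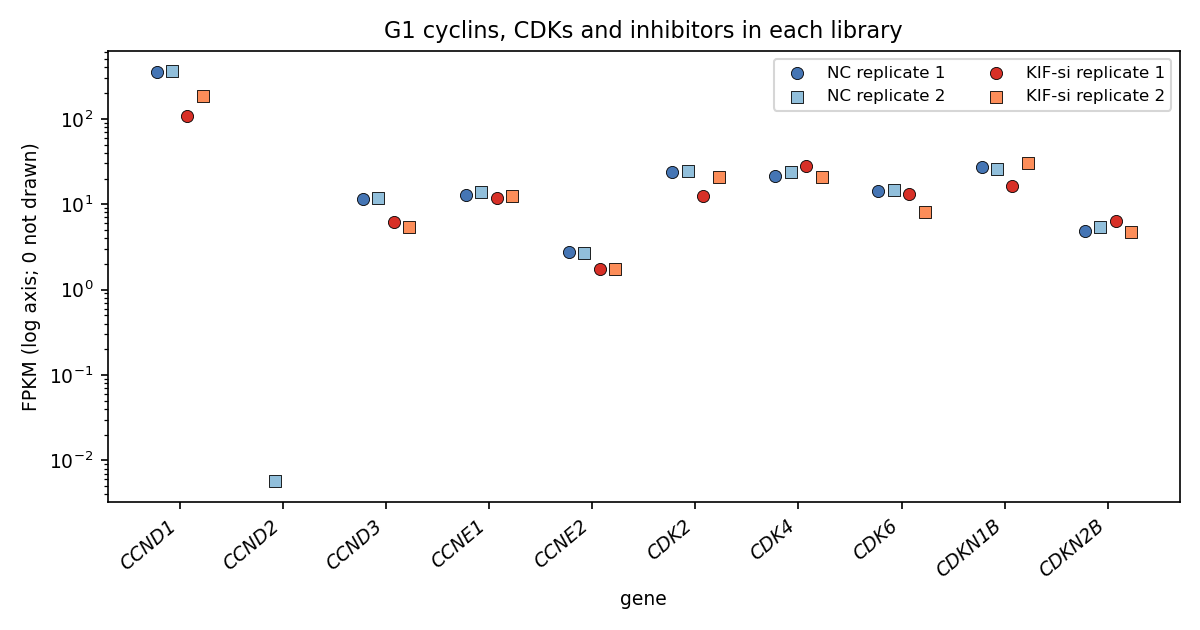
FPKM of the 10 genes (log axis) in each of the 4 libraries, with NC in blue, KIF-si in red and orange, replicate 1 as circles and replicate 2 as squares; values of 0 are not drawn. CCND1 stands between 107 and 361 FPKM, above the other 9 genes in every library, and CCND2 is drawn once, at 0.0057 FPKM from 1 read.

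Among the E-type cyclins, which pair with CDK2, CCNE1 (ENSG00000105173, chromosome 19, 30302898 to 30315219, plus strand) was the more abundant. It stood at 12.7 and 13.9 FPKM in NC and at 11.8 and 12.6 FPKM in KIF-si. Although the groups did not overlap, the difference of −0.12 on the log2(FPKM + 1) scale was no larger than its standard error of 0.12. CCNE2 (ENSG00000175305, chromosome 8, 95891998 to 95908906, minus strand) was at 2.77 and 2.66 FPKM in NC and at 1.76 and 1.74 FPKM in KIF-si. Its KIF-si libraries were almost equal, at 64.7% and 63.9% of the NC mean, and the difference was −0.44 (standard error 0.11). On this scale the change of a gene with so low a level is understated, and limma-voom on the recovered reads gave −0.63. CCNE1 made up 82.2% and 83.9% of the summed FPKM of the E-type cyclins in NC, and 87.0% and 87.9% in KIF-si.

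CDK4 and CDK6, the kinases that D-type cyclins activate, followed different courses in the KIF-si libraries. CDK4 (ENSG00000135446, chromosome 12, 58141510 to 58149796, minus strand) was at 21.6 and 23.6 FPKM in NC and at 27.9 and 20.7 FPKM in KIF-si. One KIF-si library was above both controls and the other below them, and the difference was 0.08 (standard error 0.19). CDK6 (ENSG00000105810, chromosome 7, 92234235 to 92465887, minus strand) was at 14.5 and 14.6 FPKM in NC and at 13.1 and 8.11 FPKM in KIF-si. KIF-si replicate 1 kept 90.0% of the NC mean and replicate 2 kept 55.9%, so that most of the difference of −0.46 (standard error 0.25) came from replicate 2, without which it was −0.14. CDK6 made up 40.1% and 38.2% of the summed FPKM of both kinases in NC, and 31.9% and 28.2% in KIF-si. The ratio of D-type cyclin FPKM to the FPKM of CDK4 and CDK6 together was 10.2 and 9.77 in NC, 2.76 in KIF-si replicate 1 and 6.69 in KIF-si replicate 2.

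CDK2, the kinase of cyclin E (ENSG00000123374, chromosome 12, 56360565 to 56366573, plus strand), was at 23.6 and 24.3 FPKM in NC and at 12.5 and 21.0 FPKM in KIF-si. Here it was replicate 1 that was low, at 52.4% of the NC mean, against 87.6% in replicate 2. The difference was −0.53 (standard error 0.27), and −0.18 without KIF-si replicate 1.

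CDKN1B (ENSG00000111276, chromosome 12, 12838432 to 12875303, plus strand) was at 27.2 and 25.6 FPKM in NC and at 16.4 and 30.8 FPKM in KIF-si. The KIF-si libraries lay on opposite sides of the controls, and the difference of −0.22 (standard error 0.33) was within the spread and turned to 0.21 without KIF-si replicate 1. CCND1 and CDKN1B were both lower in KIF-si replicate 1 than in replicate 2, and their ratio of FPKM was 13.1 and 14.1 in NC against 6.51 and 6.07 in KIF-si. CDKN2B (ENSG00000147883, chromosome 9, 22002902 to 22009304, minus strand), which encodes the CDK4 and CDK6 inhibitor p15, was at 4.92 and 5.45 FPKM in NC and at 6.30 and 4.77 FPKM in KIF-si. Its groups overlapped, with a difference of 0.07 (standard error 0.17).

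**Figure D2:**
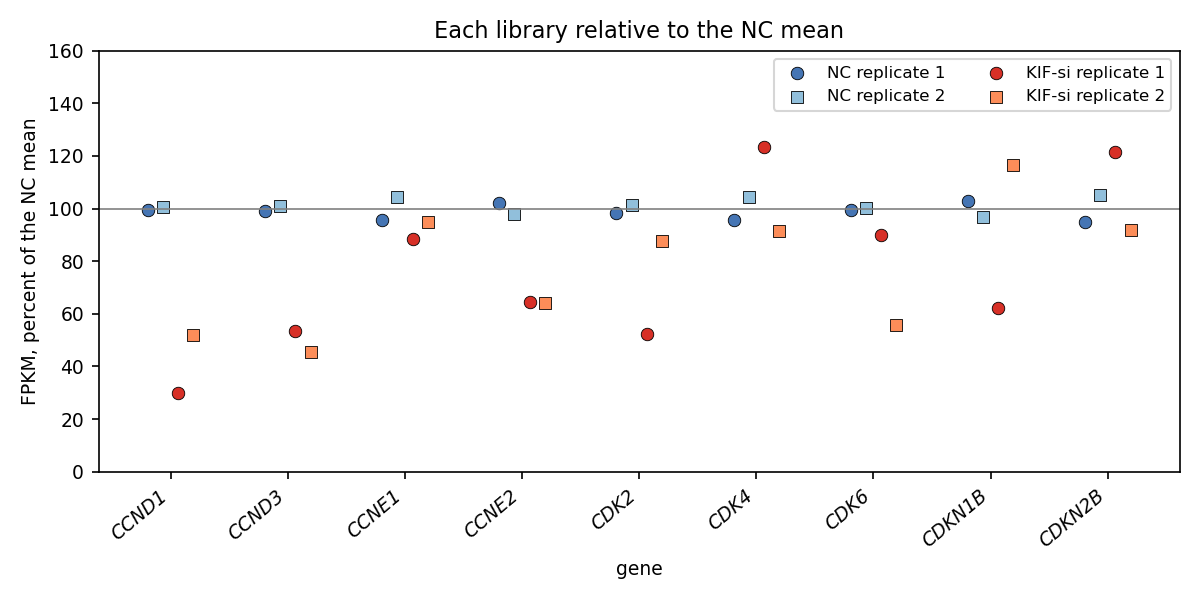
FPKM of 9 genes in each library as a percentage of the mean of the 2 NC libraries, with NC in blue, KIF-si in red and orange, replicate 1 as circles and replicate 2 as squares. CCND1, CCND3 and CCNE2 are at or below 64.7% in both KIF-si libraries, whereas CDK2, CDK6 and CDKN1B are that low in 1 KIF-si library each.

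A total of 9 of the 10 genes averaged at least 1 FPKM and entered the fit, and CCND2 did not. Of these 9, both KIF-si libraries were below both controls for 6 (CCND1, CCND3, CCNE1, CCNE2, CDK2 and CDK6), where this held for 27.8% of all 14523 genes tested, and above both controls for 0, against 24.9% of all genes. KIF-si replicate 1 alone was below both controls for 7 of the 9 and replicate 2 alone for 8, against 45.8% and 44.8% of all genes. Replicate 1 was above both controls for 2 and replicate 2 for 1, against 41.1% and 44.0% of all genes. The Methods ask for a change beyond 2-fold with an unadjusted P below 0.05, and by these thresholds 1 of the 9 (CCND1) was among the lower genes, which were 0.606% of those tested, and 0 were among the higher genes, which were 0.813%. CCND3, at −0.90 on the log2(FPKM + 1) scale, fell short of the 2-fold threshold, and limma-voom on the recovered reads gave it −1.01. The list was built around CCND1 with this contrast in view, so nothing is read from these counts. After Benjamini–Hochberg adjustment limma called 0 of the 14523 genes below 0.05, whereas 2385 had an unadjusted P below 0.05, and limma-voom on the recovered reads also called 0. The median log2 difference of the 9 genes was −0.44 and that of all genes tested −0.01.

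The KIF-si libraries differed from each other in most of these genes, whereas the NC libraries hardly did. For CCND1 the log2 ratio of KIF-si replicate 1 to replicate 2 was −0.81, with a 95% interval of −0.84 to −0.77 from the read counts, against −0.01 (−0.03 to 0.01) for the NC libraries. The intervals cover counting error only and say nothing of the spread between cultures, for which there was 1 library on each side. CDKN1B, at −0.91 (−1.02 to −0.79), and CDK2, at −0.74 (−0.86 to −0.63), were lower in replicate 1 in the same way. CDK6 was higher there, at 0.69 (0.60 to 0.77), as were CDK4, at 0.43 (0.32 to 0.54), and CDKN2B, at 0.40 (0.20 to 0.60). CCND3 differed less, at 0.23 (0.07 to 0.39), and for CCNE1 and CCNE2 the interval included 0. Of the NC ratios, only that of CDK4 had an interval that left out 0, at −0.13 (−0.23 to −0.02).

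**Figure D3:**
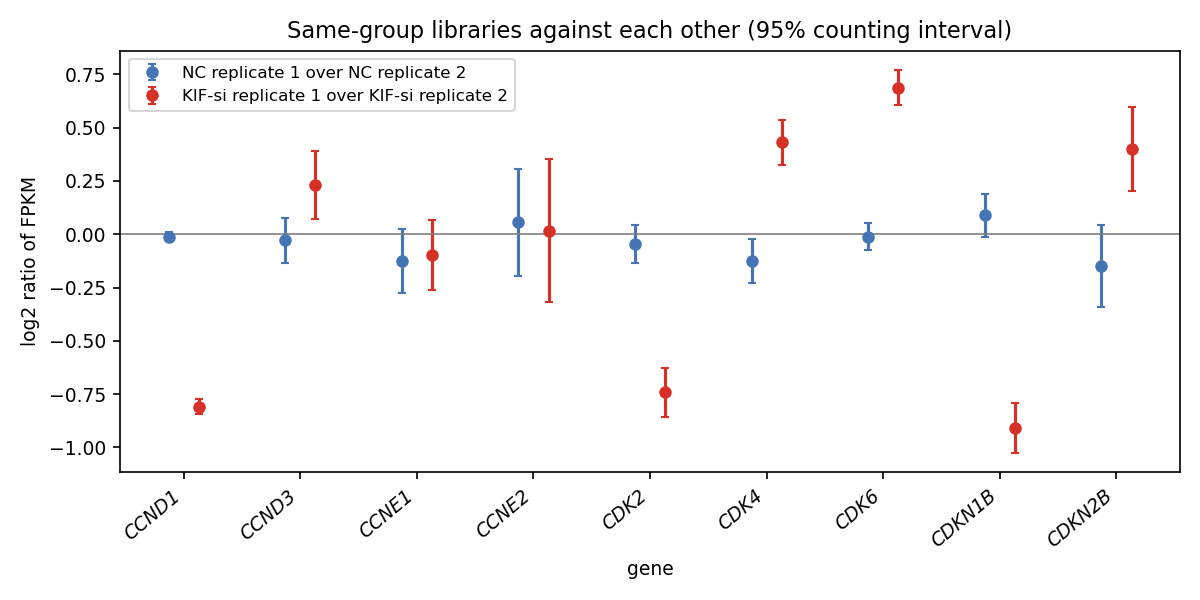
Log2 ratio of FPKM between the 2 libraries of the same group for 9 genes, NC in blue and KIF-si in red, with bars for the 95% counting interval from the recovered reads. The NC ratios stay between −0.15 and 0.09, whereas the KIF-si ratios run from −0.91 for CDKN1B to 0.69 for CDK6.

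Several of the genes share exonic sequence with a gene on the other strand, and no source says if reads were assigned by strand, so reads there cannot be told apart. Part of CCND1, 497 bases or 10.4% of its exons, overlaps LTO1, which was at 3.38 and 2.90 FPKM in NC and at 2.74 and 2.82 FPKM in KIF-si. LTO1 thus stood far below CCND1 in every library. The overlap was larger for CDK4, with 44.2% of its exons under TSPAN31, and for CCNE2, with 37.1% under INTS8. TSPAN31 was at 1.88 and 2.14 FPKM in NC and at 2.80 and 2.65 FPKM in KIF-si. INTS8, at 11.2 and 11.8 FPKM in NC and 10.8 and 11.5 FPKM in KIF-si, exceeded CCNE2 in every library. The part of INTS8 reads in the level of CCNE2 was not tested.

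Promoter sequence is shown for CDK4 and CCND3, since MYC, which binds E-boxes, and YAP1, a partner of the TEAD factors, are described below. RefSeq windows of 300 bases on GRCh38.p14, from 250 bases before the start site, were given for 6 of the 10 genes in 9 windows (CCND3, CCNE1, CDK4, CDK6, CDKN1B and CDKN2B), and not for CCND1, CCND2, CCNE2 and CDK2. They were searched on both strands for the MYC-type E-box CACGTG, the TEAD core GGAATG, the AP-1 element TGANTCA and the E2F letters TTCCCGC or TTGGCGC. The CDK4 window held 3 E-boxes, at positions −216, −196 and −101 from the start site. At least 1 E-box was found in 7.26% of all 35116 windows of this length, and at least 3 in 0.094%. The stretch from −220 to −90 of CDK4 lies at chr12:57752400-57752530 on the minus strand, with the E-boxes in capitals.
CDK4: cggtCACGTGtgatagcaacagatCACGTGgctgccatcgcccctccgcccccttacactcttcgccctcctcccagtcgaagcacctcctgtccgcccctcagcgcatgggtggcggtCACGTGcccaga
The only other E-box was in 1 of the windows of CDK6, at position 30. A TEAD core was found in 1 of 3 windows of CCND3 and in that of CDKN2B, against 14.0% of all windows. The CCND3 site is on chr6:41941832-41941861, minus strand, with the core in capitals as its reverse complement.
CCND3: gcgacgtccgagCATTCCacggttgctaca
AP-1 and E2F letters were found in none of the 9 windows, against 7.71% and 9.23% of all windows. Other forms of the E2F site were not searched, and with so few windows nothing is read from this lack. The matches above are descriptions of letters and not of binding.

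The rest of the pathway was followed with lists of genes by role, tested with limma over all genes. No gene of these lists reached an adjusted p below 0.05 from limma, the smallest being 0.242, so that the counts below are of unadjusted P values. Of all genes tested, 8.68% had an unadjusted P below 0.05 and were lower in KIF-si, and 7.74% were higher. A negative difference of any size was found for 7490 of the 14523 genes.

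The genes that E2F factors switch on for S phase all had lower means in KIF-si. All 16 listed genes were tested and all 16 had a negative difference, from −0.93 to −0.14, with a median of −0.47. Of these, 9 of 16 had an unadjusted P below 0.05. Both KIF-si libraries were below both controls for 14 of the 16, with KIF-si replicate 1 alone below them for all 16 and replicate 2 alone for 14. The shares of all genes were 27.8% for both libraries, 45.8% for replicate 1 and 44.8% for replicate 2. TK1, the thymidine kinase of S phase, was at 227 and 231 FPKM in NC and at 106 and 136 FPKM in KIF-si, a difference of −0.93 (standard error 0.17, adjusted p = 0.242 from limma). MCM4, a subunit of the replicative helicase, was at 38.6 and 38.5 FPKM in NC and at 22.8 and 22.2 FPKM in KIF-si, and CDC6, which loads that helicase, at 21.9 and 22.7 against 12.96 and 15.8 FPKM. CCNA2, the S phase cyclin that follows cyclin E on CDK2, was at 44.4 FPKM in both NC libraries and at 21.3 and 36.2 FPKM in KIF-si, with an adjusted p of 0.349 from limma. Its KIF-si replicate 1 was the lower, as for CDK2.

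Markers of dividing cells were lower beside them. All 9 had a negative difference (median −0.72), and 6 of 9 had an unadjusted P below 0.05. MKI67, the proliferation antigen, was at 59.2 and 58.6 FPKM in NC and at 27.1 and 31.4 FPKM in KIF-si, a difference of −0.99 (standard error 0.13, adjusted p = 0.242 from limma). PLK1, AURKA and BUB1, which act in mitosis, differed by −0.82, −0.81 and −0.75. The summed level of the 9 markers was 356 and 359 FPKM in NC and 191 and 248 FPKM in KIF-si, and its part in the level of CCND1 was not tested.

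Among the RB family and the E2F factors, 9 of 13 genes had a negative difference, and 3 were lower and 1 higher at an unadjusted P below 0.05. E2F7, an E2F factor that represses transcription, was at 11.05 and 11.15 FPKM in NC and at 4.25 and 6.44 FPKM in KIF-si, a difference of −0.95 (standard error 0.21). RBL1, a relative of RB1, differed by −0.58 and E2F2 by −0.54, the latter with an adjusted p of 0.308 from limma. RBL2, another RB relative that is linked to the resting state, was at 6.42 and 5.64 FPKM in NC and at 7.13 and 10.5 FPKM in KIF-si, a difference of 0.46. Neither E2F2 nor RBL2 had an unadjusted P below 0.05. The others that did were RB1 itself (−0.45) and TFDP2, a dimerization partner of the E2F factors, which was the higher one (0.43), and both had an adjusted p of 0.248 or more from limma.

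Of the 6 other genes listed by name as CDK inhibitors, 1 was lower and 1 higher at an unadjusted P below 0.05. CDKN1A, which encodes p21, was the most abundant inhibitor, at 206 and 211 FPKM in NC and at 268 and 318 FPKM in KIF-si. Both KIF-si libraries were above both controls, with a difference of 0.48 (standard error 0.14, adjusted p = 0.271 from limma). CDKN2C, an INK4 inhibitor like CDKN2B, was at 5.48 and 5.13 FPKM in NC and at 2.78 and 3.09 FPKM in KIF-si, a difference of −0.68 (standard error 0.12). CDKN3 and CDKN2D differed by −0.60 and −0.43 with standard errors of 0.31 and 0.40, and in both KIF-si replicate 1 was the low library.

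Of the 10 genes that activate or dephosphorylate CDKs or hold them back by phosphorylation, 3 were lower and 0 higher at an unadjusted P below 0.05. These were CDC25C, a CDK phosphatase (−0.82), and the inhibitory kinases PKMYT1 (−0.55) and WEE1 (−0.45). CDC37, a chaperone that loads CDK4, differed by 0.25 (adjusted p = 0.357 from limma). Of 15 tested genes for the turnover of G1 cyclins and p27, only USP2, which removes ubiquitin from cyclin D1, had an unadjusted P below 0.05, at 2.53 and 2.84 FPKM in NC and 1.59 and 1.38 FPKM in KIF-si. FZR1, RBX1 and FBXO4 differed by −0.44, −0.39 and 0.32. The median of this list was −0.08.

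Known regulators of CCND1 transcription, 24 tested of 25 listed, differed in both directions, with 14 negative and 10 positive differences and a median of −0.07. At an unadjusted P below 0.05, 2 were lower and 1 higher, close to the share of all genes for the lower ones (8.68%). MYC, a growth-promoting transcription factor that binds E-boxes, was at 78.5 FPKM in both NC libraries and at 146 and 158 FPKM in KIF-si, a difference of 0.94 (standard error 0.11, adjusted p = 0.242 from limma). ETS1, which encodes an ETS factor, was at 10.03 and 10.99 FPKM in NC and at 4.66 and 6.04 FPKM in KIF-si, a difference of −0.87. YAP1 differed by 0.40 (adjusted p = 0.378 from limma), while its relative WWTR1 was at 13.6 FPKM in both NC libraries and at 10.4 and 6.55 FPKM in KIF-si. EGR1, an immediate early factor, was at 74.1 and 78.6 FPKM in NC, 79.3 FPKM in KIF-si replicate 1 and 18.5 FPKM in KIF-si replicate 2. Its KIF-si libraries were thus far apart.

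Of 10 listed genes around CCND1 on chromosome 11, 8 were tested. Of these, 3 had a negative and 5 a positive difference, and the median was 0.13. Both KIF-si libraries were below both controls for 1 of the 8, LTO1, whose values are given above, and above both for 3. The shares of all genes tested were 27.8% and 24.9%, and with 8 genes nothing is read from these counts. FGF19, a growth factor gene, was at 7.70 and 7.75 FPKM in NC and at 15.3 and 21.6 FPKM in KIF-si, a difference of 1.14 (standard error 0.20, adjusted p = 0.242 from limma). It was the only gene of all these lists beside CCND1 past the thresholds of the Methods, and without KIF-si replicate 2 it did not pass them. CTTN, MYEOV and FADD differed by 0.41, 0.35 and −0.33, with standard errors of 0.21, 0.50 and 0.33.

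The genes with the pattern most like that of CCND1 were sought among 4390 other protein-coding genes averaging 10 FPKM or more, by the Euclidean distance between log2(FPKM + 1) profiles over the 4 libraries, each centred on its NC mean. APOBEC3B, a cytidine deaminase, was nearest (distance 0.21), at 23.0% of its NC mean in KIF-si replicate 1 and 54.4% in KIF-si replicate 2. S100A10 (0.42), SHCBP1 (0.44), AMOTL2 (0.45) and PBK (0.51) followed. Of the other G1 genes at that level, CDK2 was nearest to CCND1, at rank 161 and a distance of 1.15, and CDK4 was farthest, at rank 3185 and a distance of 2.19. CCND3, with a mean below 10 FPKM, was not ranked, so CDK2 was nearest only among the G1 genes that were ranked. In KIF-si replicate 1, CCND3 held 53.5% of its NC mean and CDK2 52.4%, against 29.7% for CCND1. In KIF-si replicate 2, CCND3 at 45.7% was closer to CCND1 at 52.0% than CDK2 was, at 87.6%. CDK2 was thus slightly the closer in replicate 1, and CCND3 was much the closer in replicate 2. Over both KIF-si libraries together CCND3 lay nearer to CCND1 than CDK2 did, although its distance was not among those listed.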

How the data were processed

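RNA-seq libraries of poly(A) RNA were sequenced as paired ends. The authors aligned the reads with HISAT2 2.0.5 and counted them with featureCounts 1.5.0-p3. The genome is hg38 per the labels and hg19 in the Methods, and the annotation is not given in the sources used here. The authors deposited 1 FPKM value per gene and library, and the unit was read from the values. Symbols, for 56513 of 58735 identifiers, and coordinates come from GENCODE release 44 on GRCh37, promoters from RefSeq on GRCh38.p14.

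Read counts were rebuilt from the steps of the FPKM values, as the exon length of a gene at which its 4 values became whole within 0.001 reads. This succeeded for 23396 of the 23397 genes above 0 in every library. Where a multiple of that length also gave whole reads, the one within 5% of the annotated length was taken. Expression was compared with limma 3.58.1 in R 4.3.3 on log2(FPKM + 1), over 14523 genes averaging 1 FPKM or more, without covariates, and p-values were adjusted over these genes by Benjamini–Hochberg. The functions were tested on simulated data. The Methods name DESeq2, a count test, for which FPKM is not suited. With 2 libraries per group an exact permutation test of 1 gene cannot go below a p of 0.333, so none is given. Intervals of read ratios are exact (Clopper–Pearson).

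The genes, lists and tests were chosen with earlier results of these data known. Named genes are the 10 genes, KIF26B, up to 4 genes with the largest differences per list and those past the thresholds, genes sharing exons with the 10, and the 5 nearest to CCND1. CD3E and VIL1 were added from the marker lists, and YAP1, RB1 and TFDP2 were named after their values were seen. PECAM1 was not analysed here. Python 3.11.15, scipy 1.17.1 and matplotlib 3.10.9 were used.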

Additional observations from a re-analysis of the deposited data

How the results depend on the processing

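CCND1 was lower in KIF-si under each of the 12 alternatives run, from −1.74 to −0.94 on the log2 scale. Both ends came from leaving out a KIF-si library (replicate 2 and replicate 1). The alternatives reuse the values by which CCND1 was chosen and are no further evidence for its difference. CCND3, CCNE1, CCNE2, CDK2 and CDK6 also kept their negative sign under all 12, and CDK4, CDKN1B and CDKN2B changed sign when KIF-si replicate 1 was left out. Past the thresholds of the Methods were 88 lower and 118 higher genes. Taking the replicate number as a block changed this to 98 and 135, and CCND1 was again the 1 gene of the 10 past them. The numbers share no stated culture or day, and deviations of same-numbered libraries from their group means had a correlation of −0.00314 across genes. The counts moved to 52 and 69 with at least 1 FPKM in every library, to 203 and 217 with a pseudocount of 0.1, and to 204 and 197 with limma-voom on the recovered reads. The range on leaving out single libraries was 123 to 223 for lower and 156 to 334 for higher genes. With the pseudocount of 0.1 and with limma-voom 2 of the G1 genes were lower (CCND1 and CCND3). With KIF-si replicate 1 left out it was CCND3 and not CCND1 (−0.94) that passed. Of the pathway lists, 2 genes were lower with the pseudocount of 0.1 and with limma-voom (E2F7 and MKI67) and 1 with scaling by total recovered reads (MKI67), against 0. With a library left out they were 0 to 9, with 0 to 3 higher, against 1. Adding 0.1 in place of 1 raises differences of low genes by construction, and the cause of the other moves was not tested. The share of CCND1 among D-type cyclins in NC was 96.8% and 96.9% with either NC library left out. The adjusted p stayed above 0.05 for all genes in each fit with 2 libraries per group. Without KIF-si replicate 1, a fit that assumes that the lone library varies like the NC pair, 2507 genes passed. Depth limits CCND2 (1 read in all) and KIF26B.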

Other observations

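The KIF-si libraries also parted in genes next to this pathway, which are given as values only. CDKN1C, the gene of the CDK inhibitor p57, was at 19.6 and 21.1 FPKM in NC, 9.75 FPKM in KIF-si replicate 1 and 51.0 FPKM in KIF-si replicate 2. It was named after its values were seen. MYEOV, a neighbour of CCND1, was at 58.7 and 58.3 FPKM in NC and at 45.9 and 122 FPKM in KIF-si. CDKN1B and CDKN2D, like CDKN1C, were below both controls in KIF-si replicate 1 and above both in replicate 2.

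Among the genes most like CCND1 in pattern, S100A10, a calcium-binding protein gene, was at 171 and 169 FPKM in NC and at 63.4 and 105 FPKM in KIF-si. AMOTL2, an angiomotin family gene, was at 20.1 and 21.2 FPKM in NC and at 7.63 and 9.06 FPKM in KIF-si. Each of these genes was chosen for its likeness to CCND1, so their levels are a description.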
